A study of Mus musculus with 24 samples.

Results

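The nuclear genes of the mitochondrial respiratory chain were followed in the liver and duodenum of *Hfe*-deficient and wild-type mice. Members were taken by name from the probe sets (groups of oligonucleotide probes that measure 1 transcript) that carry a single gene symbol: every symbol starting with Nduf, Sdha to Sdhd, Uqcr, Atp5 or Cox4 to Cox8, and for each gene the brightest probe set by mean log2 signal over all arrays. The rule found 94 genes among the 18193 genes with such a probe set, and 89 of them, of 13006 genes in all, reached a signal of 20 on at least 3 arrays of either tissue. The signal is the intensity summary that the MAS5 software gives for a probe set.

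The respiratory chain sits in the inner mitochondrial membrane. Complexes I and II pass electrons from NADH and succinate to ubiquinone, complex III passes them on to cytochrome c, complex IV reduces oxygen, and complex V, the ATP synthase, uses the proton gradient that results. Complexes I to III carry iron-sulfur clusters, and complexes II to IV carry heme, so the chain is among the main users of cellular iron. *Hfe* encodes a membrane protein that controls hepcidin, the hormone of iron balance, and its loss leads to iron loading of the liver.

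The 94 genes were 34 of complex I, 4 of complex II, 8 of complex III, 19 of complex IV, 17 of complex V and 12 assembly factors, whose symbols match the rule although they are not part of the finished complexes. *Ndufa4* was counted with complex IV, where its protein is now placed. Those that did not reach the minimum were *Ndufb4* of complex I and *Cox4i2*, *Cox7b2*, *Cox8b* and *Ndufa4l2* of complex IV. A further 10 probe sets name a member together with another gene and were left out. For *Ndufb4* this leaves a single dim probe set, whose signals lay between 1.14 and 14 on the 24 arrays, so its level is not described here.

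The study compared 8 groups of 3 arrays, 24 in all, from male mice aged 7 weeks: liver and duodenum, each from C57BL/6 (B6) and DBA/2 (D2) mice, each either wild-type or *Hfe* knockout (*Hfe*-/-). No other allele or treatment was given in the labels, and per the study's methods all mice were given the same diet and were fasted before being killed. Knockouts came from the institute's own animal house and wild-type controls from a commercial breeder, so the origin of a mouse and its genotype cannot be told apart. Per the study's methods, 3 mice of each strain and genotype were profiled, which implies that liver and duodenum arrays of a group shared mice. The labels call the replicates biological and do not say which liver and duodenum arrays came from 1 mouse.

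Arrays were scaled alike by the authors, and the median signal ran from 15.7 to 20.9 in liver and from 20 to 23.4 in duodenum. The *Hfe* probe set read 434 to 691 in wild-type liver against 70.4 to 98.8 in knockout liver, and 76.6 to 105 against 15.7 to 45.1 in duodenum, so every array matched its label. None of the 8 hepatocyte markers was under 20 on all arrays of a liver group, and none of the 7 enterocyte markers measured was so in a duodenum group. Pancreatic acinar markers, 11 measured, summed to between 1978 and 101870 in the duodenum arrays and to at most 1263 in liver. Both 1978 and 99712 were read among the D2 knockout duodenum arrays. All arrays were whole tissue, in which fewer cells of a type and less RNA per cell cannot be told apart.

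Promoter sequences were available for 78 of the 94 members, as 300 bases from 250 before to 50 after the annotated start of the gene (RefSeq, mouse build GRCm38.p6). Letters of 4 factors linked to mitochondrial genes were searched on both strands: GCGCATGCG for NRF1, CCGGAAG for GABP, AAGATGGC for YY1 and TCAAGGTCA for ERRa. No motif contains another. NRF1 letters stood in 9 member promoters (11.5%) against 1.75% of all 32851 promoters, GABP letters in 22 (28.2%) against 8.86%, YY1 letters in 10 (12.8%) against 2.75% and ERRa letters in 2 (2.56%) against 0.423%. At least 1 of the 4 was present in 36 members (46.2%) and in 12.9% of all promoters. The background was every annotated promoter, not those of kept or similarly bright genes, so the shares are not read as particular to the chain. A match of letters is a description of the window, and no binding was measured.

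Shown here are the windows of 6 members that the comparisons below turn on: *Ndufa12* (chr10:94198785-94199084, plus strand), *Ndufa3* (chr7:3617123-3617422, plus) and *Ndufaf5* (chr2:140170396-140170695, plus), which differed between the strains, and *Cox7a1* (chr7:30183921-30184220, plus), *Uqcr11* (chr10:80406772-80407071, minus) and *Uqcrc1* (chr9:108936398-108936697, plus), which differed between the tissues. Each reads 5′ to 3′ along the gene, and capitals mark the motif letters. *Ndufa3* holds a YY1 match from base 273 of the window, and *Ndufaf5* and *Uqcrc1* each hold a pair of overlapping NRF1 matches, one on either strand, from bases 267 and 268 and from bases 281 and 282. *Uqcr11* holds a GABP match from base 185 and an NRF1 match on the opposite strand from base 246. *Ndufa12* and *Cox7a1* hold none of these letters.
Ndufa12: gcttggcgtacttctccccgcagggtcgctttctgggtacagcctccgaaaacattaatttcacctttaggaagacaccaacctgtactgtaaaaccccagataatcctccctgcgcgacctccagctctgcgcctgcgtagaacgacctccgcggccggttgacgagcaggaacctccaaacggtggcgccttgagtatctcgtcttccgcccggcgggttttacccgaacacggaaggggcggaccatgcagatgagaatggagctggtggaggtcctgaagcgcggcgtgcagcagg
Ndufa3: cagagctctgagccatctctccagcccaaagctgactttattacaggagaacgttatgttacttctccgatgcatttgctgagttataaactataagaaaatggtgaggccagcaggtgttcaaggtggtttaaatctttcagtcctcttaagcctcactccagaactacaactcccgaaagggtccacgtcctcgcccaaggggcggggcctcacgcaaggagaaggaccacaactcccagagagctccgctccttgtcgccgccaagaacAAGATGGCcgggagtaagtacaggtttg
Ndufaf5: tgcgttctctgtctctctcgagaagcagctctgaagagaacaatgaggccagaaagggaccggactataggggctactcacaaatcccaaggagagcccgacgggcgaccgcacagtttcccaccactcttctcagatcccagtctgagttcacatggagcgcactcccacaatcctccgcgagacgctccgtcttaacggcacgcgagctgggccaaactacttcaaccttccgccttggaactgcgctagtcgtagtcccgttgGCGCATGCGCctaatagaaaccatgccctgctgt
Cox7a1: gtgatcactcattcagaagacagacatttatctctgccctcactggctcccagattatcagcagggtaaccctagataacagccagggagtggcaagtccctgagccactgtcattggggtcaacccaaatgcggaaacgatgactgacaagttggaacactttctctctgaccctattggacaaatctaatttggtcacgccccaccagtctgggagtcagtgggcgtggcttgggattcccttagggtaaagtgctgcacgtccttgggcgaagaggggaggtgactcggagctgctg
Uqcr11: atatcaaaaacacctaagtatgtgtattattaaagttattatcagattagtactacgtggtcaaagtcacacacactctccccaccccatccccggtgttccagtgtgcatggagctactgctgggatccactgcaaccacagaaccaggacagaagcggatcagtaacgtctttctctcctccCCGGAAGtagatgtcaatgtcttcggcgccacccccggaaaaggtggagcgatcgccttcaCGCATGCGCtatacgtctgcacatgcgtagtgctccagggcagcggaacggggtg
Uqcrc1: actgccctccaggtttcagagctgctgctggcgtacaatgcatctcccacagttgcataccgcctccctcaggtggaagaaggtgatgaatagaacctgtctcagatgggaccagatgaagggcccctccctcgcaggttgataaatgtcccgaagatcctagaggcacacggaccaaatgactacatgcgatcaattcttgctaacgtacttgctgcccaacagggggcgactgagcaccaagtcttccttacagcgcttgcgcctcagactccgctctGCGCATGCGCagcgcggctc

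The first comparison asked whether loss of *Hfe* was accompanied by a change of respiratory chain transcripts in the liver, within each strain. No member passed the limma test at an adjusted p of 0.1 in either strain. In D2 liver, 5 of the 89 members had an unadjusted p under 0.05 and the median difference, knockout minus wild-type, was 0.04 on the log2 scale (0.02 over all genes). Of all 13006 genes, 1.72% were called higher and 1.58% lower in that comparison. In B6 liver, 3 members had an unadjusted p under 0.05 and the median was -0.02 (0 over all genes), where 0.63% of all genes were called higher and 0.515% lower. The share of all genes with an unadjusted p under 0.05 was not counted, here or below. Counts of members at that cut therefore have no background and are not read as an excess. The median width of the 95% interval on either side of a member's difference was 0.2 log2 units in both strains. The interval lay wholly between -0.5 and 0.5 for 78 members in D2 and 79 in B6, which bounds their differences but does not show that they were equal. Without D2 knockout array 1 alone, 4 members passed in D2 liver (*Atp5mpl*, *Ndufaf5*, *Sdha* and *Uqcrfs1*). Of the 3 erythroid markers measured, *Alas2*, the first enzyme of heme synthesis in red cells, read 1570, 2189 and 1931 in D2 knockout liver and 773, 704 and 1018 in D2 wild-type liver. *Slc4a1* overlapped between the groups, at 25.2, 26.8 and 9.55 against 22.1, 23.2 and 27.6. The *Hba-a1* probe set was under 20 on all of these arrays, so it gives no reading of red cell content. The part of red cells in the member differences was not tested.

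By complex, the D2 liver medians were 0.07 for complex I, 0.18 for complex II, -0.02 for complex III, 0.01 for complex IV, 0.05 for complex V and 0.02 for the assembly factors. In B6 liver they ran from -0.1 for complex II to 0.08 for the assembly factors. The lowest single value, -1.44 in D2 liver, belonged to *Cox6b2*, the testis isoform of a complex IV subunit, whose signals were 23.6, 2.37 and 28 in the knockouts, so that 1 dim reading sets it.

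The member with the smallest p in D2 liver was *Ndufaf5*, an assembly factor of complex I. Its signals were 38.3, 45.8 and 57.6 in the wild-type mice and 62.9, 101 and 87.3 in the knockouts, so the groups did not overlap. The difference was 0.82 (95% interval 0.32 to 1.33, limma, adjusted p = 0.112). In B6 liver the knockouts read lower, at 43.1, 42.3 and 34.2 against 60.3, 46.7 and 49.9, a difference of -0.39 (-0.9 to 0.12). Within the hybridization run that held D2 mice of both genotypes, which left 1 wild-type array, the D2 difference was 0.52.

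*Sdha*, the flavoprotein of complex II that oxidizes succinate, read 3710, 3248 and 3466 in wild-type D2 liver and 3857, 4476 and 4254 in the knockouts. All 3 knockouts lay above all 3 wild-type mice, a difference of 0.27 (0.08 to 0.46, adjusted p = 0.16). The iron-sulfur subunit *Sdhb* differed by 0.19 (-0.02 to 0.41) and the membrane anchor *Sdhc* by 0.16 (-0.09 to 0.4), while the other anchor, *Sdhd*, differed by -0.15 (-0.33 to 0.03). In B6 liver all 4 complex II values were below 0, from -0.2 to -0.02, and every interval held 0.

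*Uqcrfs1*, the Rieske iron-sulfur protein of complex III, read 2635, 2370 and 2470 in wild-type D2 liver against 2250, 2096 and 1937 in the knockouts. The groups did not overlap and the difference was -0.25 (-0.43 to -0.07, adjusted p = 0.178), or -0.24 within the shared run. The B6 value was -0.09 (-0.27 to 0.09). *Uqcrfs1* is on chromosome 13, as is *Hfe*, and so are *Sdha*, *Ndufs4* and *Cox7c*. Whether DNA carried along with the knockout allele had a part in their knockout differences was not tested. Over the 7 members known to bind iron-sulfur clusters (*Ndufs1*, *Ndufs7*, *Ndufs8*, *Ndufv1*, *Ndufv2*, *Sdhb* and *Uqcrfs1*, chosen for this description after values were seen), the D2 liver differences ran from -0.25 to 0.3 with a median of 0.03. In B6 liver they ran from -0.09 to 0.22 with a median of -0.02, and none had an unadjusted p under 0.05.

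In B6 liver the smallest p belonged to *Ndufb1*, a small accessory subunit of complex I. It read 65.5, 77.9 and 81.4 in wild-type and 64.6, 35.2 and 41.6 in knockout mice, a difference of -0.71 (-1.19 to -0.23, adjusted p = 0.223). The groups were separated by less than 1 signal unit, and within the run that held both genotypes, with 1 knockout array, the difference was -0.21. *Cox7a1*, the complex IV isoform of heart and skeletal muscle, read 31.9, 28.7 and 17.3 against 40.7, 56.1 and 38.6, a difference of 0.83 (0.18 to 1.47, adjusted p = 0.297). All 3 knockouts were above all 3 wild-type mice, at signals near the minimum. Of 9 striated muscle markers, 7 were under 20 on all arrays of these knockouts and 8 on all arrays of the wild-type mice, and the sums, 63.2 to 101 against 52.2 to 68.8, are mostly such low readings. Of 8 smooth muscle markers, 5 and 6 were under 20 in the same way, and smooth muscle markers summed to 112 to 166 against 107 to 129. Their part in the *Cox7a1* values was not tested.

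**Figure D1:**
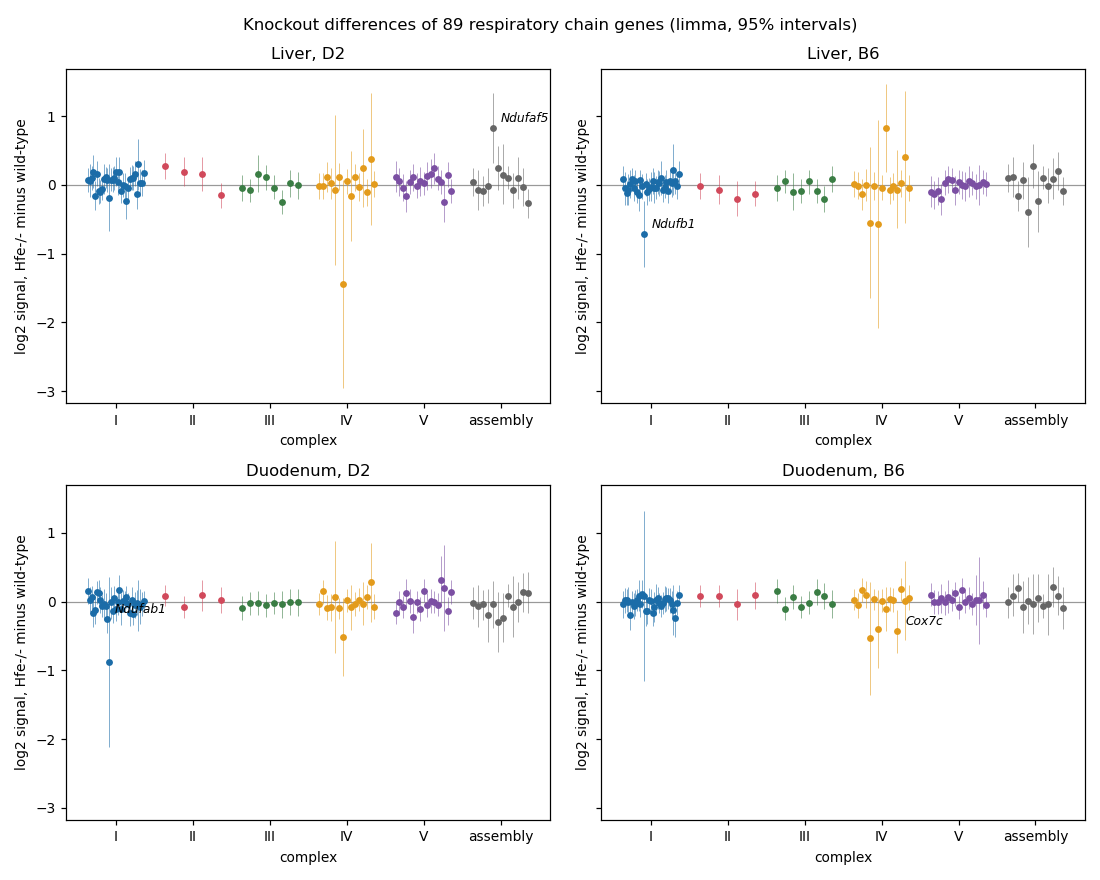
Differences in log2 signal, *Hfe*-/- minus wild-type (vertical axis), for the 89 members grouped by complex (horizontal axis), in liver and duodenum of D2 and B6 mice; points are limma estimates from 3 against 3 arrays, vertical lines their 95% intervals, and the named gene is the one with the smallest p. Most points lie close to 0 in all 4 panels, with medians of 0.04, -0.02, -0.02 and 0.01, and the widest intervals belong to dim genes such as *Cox6b2*.

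Whether the knockout difference itself differed between the strains was tested by the interaction, D2 minus B6. No member passed in liver, where 4 had an unadjusted p under 0.05, and 0.131% of all genes were called higher and 0.0923% lower. *Ndufaf5* again had the smallest p, with a difference of the differences of 1.21 (SE 0.34, adjusted p = 0.217), and it passed when D2 knockout array 1 was left out. *Sdha* followed at 0.29 (SE 0.12, adjusted p = 0.459) and *Sdhc* stood at 0.35 (SE 0.16, adjusted p = 0.506). *Cox7a1* went the other way, at -0.99 (SE 0.43, adjusted p = 0.464).

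In the duodenum, the site of iron uptake from the diet, no member passed in either strain (limma). In D2 mice the median was -0.02 (0.01 over all genes) and 2 members had an unadjusted p under 0.05, while 0.331% of all genes were called higher and 0.154% lower. In B6 mice the median was 0.01 (-0.01 over all genes), again with 2 members at an unadjusted p under 0.05, and 0% of all genes were called higher and 0.00769% lower. The 95% intervals lay between -0.5 and 0.5 for 79 members in D2 and 81 in B6. The interaction gave no call among the members, 4 with an unadjusted p under 0.05, and 0.00769% of all genes in each direction.

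The smallest p in D2 duodenum belonged to *Ndufab1*, the acyl carrier protein of mitochondria, which is also a complex I subunit. It read 2633, 2167 and 2163 in wild-type and 2074, 1859 and 1885 in knockout mice. The groups did not overlap, and the difference was -0.25 (-0.46 to -0.05, adjusted p = 0.322). The mean over all its kept probe sets went the other way, at 0.04. *Ndufs4*, an accessory subunit of complex I, read 1012, 919 and 921 against 795, 864 and 856, a difference of -0.18 (-0.34 to -0.02, adjusted p = 0.359).

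In B6 duodenum the smallest p belonged to *Cox7c*, a small complex IV subunit. Its probe set was dim, at 86.4, 79.5 and 83.8 in wild-type and 60.9, 57.8 and 66.5 in knockout mice, and the groups did not overlap. The difference was -0.43 (-0.75 to -0.12, adjusted p = 0.873), and in D2 duodenum the same gene differed by -0.03. The 7 iron-sulfur members ran from -0.16 to -0.02 in D2 duodenum and from -0.24 to 0.14 in B6, none with an unadjusted p under 0.05.

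Acinar marker sums varied most among the D2 knockout duodenum arrays. Arrays 2 and 3 of that group, where the sum was low, were set aside after the data were seen, which left 1 knockout array that was assumed to vary like the other groups. The single member called then, *Ndufb1*, rests on 1 reading of 5.7, under the minimum of 20, against 47.5 and 27.7 on the arrays set aside, so it is not read as a difference. The part of acinar RNA in the duodenum values was not tested.

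The next comparison set wild-type D2 against wild-type B6 mice, with an adjusted p of 0.01 as the threshold. In liver a single member passed, *Ndufa12*, an accessory subunit of complex I, which was lower in D2. No member was called higher, where 2.49% of all genes were called higher and 2.54% lower. An unadjusted p under 0.05 was seen for 17 members, and the share of all genes at that cut was not counted. In duodenum 4 members passed: *Ndufa12* and *Ndufa3* were lower in D2, and *Cox7a2l* and *Ndufaf5* were higher. Of all genes, 1.33% were called higher and 1.98% lower in duodenum. The median member difference, D2 minus B6, was -0.04 in liver and 0.07 in duodenum.

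*Ndufa12* read 4190, 4104 and 3788 in B6 wild-type liver and 1637, 1679 and 1726 in D2. The knockout livers read 3745, 3545 and 3836 in B6 and 1693, 1754 and 1969 in D2. Thus all 6 B6 livers lay above all 6 D2 livers, with no overlap in either genotype. The wild-type difference was -1.26 (SE 0.084, adjusted p = 1.52e-07), and the knockout mice, which are separate animals, gave -1.04 (SE 0.084, adjusted p = 9.81e-07).

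The duodenum showed the same order. *Ndufa12* read 3487, 3284 and 3354 in wild-type B6 and 1785, 1687 and 1934 in wild-type D2, a difference of -0.91 (SE 0.0775, adjusted p = 9.15e-06). In the knockouts it was -0.86 (SE 0.0775, adjusted p = 1.68e-05). The other probe sets of *Ndufa12* did not all follow. A second set differed by -0.79 in liver and -0.42 in duodenum, both past the threshold, and a dim set by -0.52 and -0.12. The remaining set went the other way, by 0.55 in liver (adjusted p = 0.0197) and 0.18 in duodenum (adjusted p = 0.654). Whether sequence differences between the strains under the probes had a part in these or the other strain values was not tested. With the mean of all its probe sets *Ndufa12* remained lower in D2 liver, at -0.51 and past the threshold, and read -0.32 in duodenum, not past it.

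*Ndufa3*, another accessory subunit of complex I, read 2767, 2801 and 2823 in wild-type B6 duodenum and 2238, 2076 and 2177 in D2. The groups did not overlap, and the difference was -0.37 (SE 0.0753, adjusted p = 0.00879). Another bright probe set gave -0.37 as well (adjusted p = 0.00707). In liver the difference was -0.3 (adjusted p = 0.033), and the knockout mice gave -0.22 in liver (adjusted p = 0.122) and -0.23 in duodenum (adjusted p = 0.0946), neither past the threshold.

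*Cox7a2l*, which ties complexes III and IV together in supercomplexes, read 1130, 1004 and 1155 in wild-type B6 duodenum and 1411, 1577 and 1441 in D2. Every D2 array was above every B6 array, and the difference was 0.43 (SE 0.0803, adjusted p = 0.00512). Its other probe sets gave 0.32 and 0.5, and the knockout duodenum gave 0.44 (adjusted p = 0.00441). In liver the signals overlapped, at 963, 1047 and 904 in B6 and 1027, 973 and 1099 in D2, a difference of 0.09 in wild-type and in knockout mice.

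*Ndufaf5* was dim but separated, at 45.7, 58.1 and 55.7 in wild-type B6 duodenum and 102, 94.5 and 82.2 in D2. The difference was 0.81 (SE 0.158, adjusted p = 0.00715), and 0.76 in the knockouts (SE 0.158, adjusted p = 0.0102). In wild-type liver it was -0.16 (SE 0.237, adjusted p = 0.783), and in knockout liver 1.05 (SE 0.237, adjusted p = 0.0103). Of these 4 duodenum calls, *Ndufa12* alone held when any single array of the comparison was left out, *Ndufaf5* also held without D2 wild-type array 3, and *Ndufa12* alone held with the hybridization run as a block. The wild-type B6 duodenum arrays were all hybridized in 1 run and the D2 arrays in another, so only the knockout arrays tie the runs together in that fit.

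**Figure D2:**
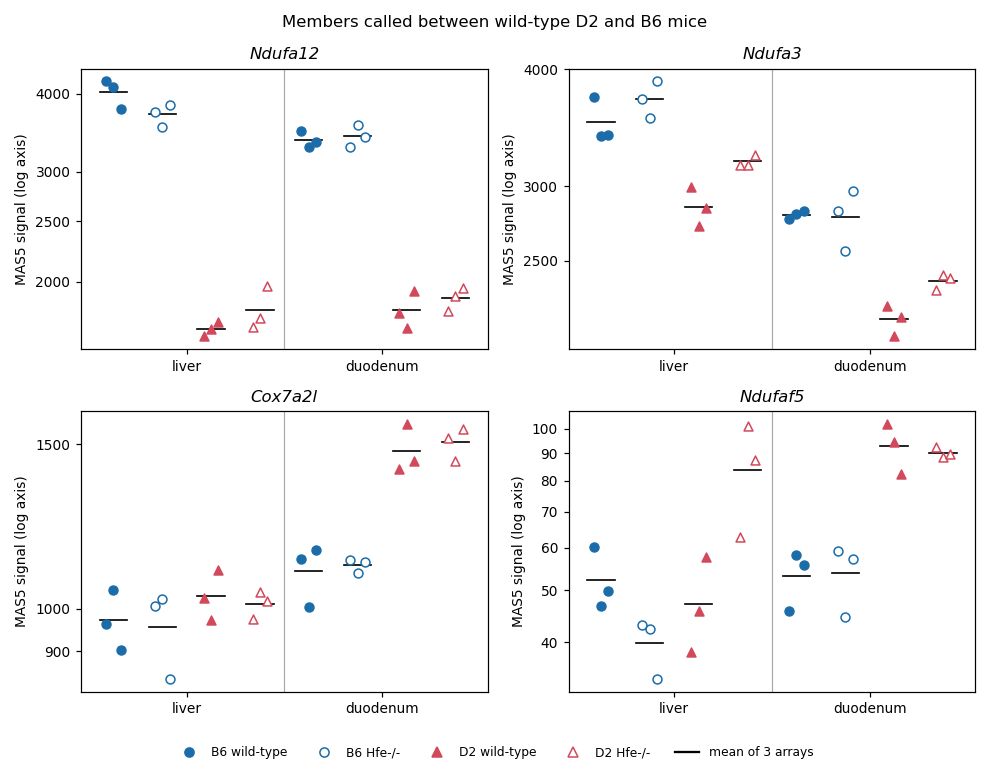
MAS5 signals (vertical log axes, which differ between panels) of *Ndufa12*, *Ndufa3*, *Cox7a2l* and *Ndufaf5* on every array of liver and duodenum; circles are B6, triangles D2, filled wild-type, open *Hfe*-/-, and bars the mean of 3 arrays. *Ndufa12* separates the strains in both tissues and both genotypes, with B6 livers at 3545 to 4190 and D2 livers at 1637 to 1969, whereas *Cox7a2l* separates them in duodenum and overlaps in liver.

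Whether the strain difference itself differed between liver and duodenum was tested in a joint fit. No member passed at an adjusted p of 0.01, where 0.661% of all genes were called higher and 0.707% lower. An unadjusted p under 0.05 was seen for 20 members, and the share of all genes at that cut was not counted. The smallest p belonged to *Ndufaf3*, a complex I assembly factor, which read 261, 257 and 267 in B6 liver against 228, 210 and 209 in D2 liver. In duodenum the order turned, at 162, 184 and 194 in B6 against 226, 218 and 212 in D2, and the difference of the differences was -0.57 (SE 0.13, adjusted p = 0.0255). *Ndufs1*, the largest iron-sulfur subunit of complex I, gave -0.42 (SE 0.11, adjusted p = 0.045) and *Ndufs4* -0.35 (SE 0.09, adjusted p = 0.0591). *Ndufaf5* gave -0.97 (SE 0.28, adjusted p = 0.0736).

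The last comparison set wild-type liver against wild-type duodenum within each strain, at an adjusted p of 0.01. The count of members called in each direction depended on how the arrays were scaled. On the deposited scaling, 43 members were higher and 5 lower in B6 liver than in duodenum, and 33 were higher and 7 lower in D2. Of all genes, 22.2% were called higher and 29.5% lower in B6, and 22% and 29.2% in D2. The median member was at 0.25 in B6 and 0.18 in D2, against -0.19 and -0.16 over all genes. After quantile normalization, which gives every array the same distribution, the median over all genes moved to -0.01 and 0. The calls then were 21 higher and 13 lower in B6, where 25.5% of all genes were called higher and 26% lower. In D2 they were 16 higher and 21 lower, against 24.8% and 25.3% of all genes. The member medians were -0.05 and -0.02. Relative to the median of all genes, members thus stood 0.44 and 0.34 higher in liver on the deposited scaling and -0.04 and -0.02 after quantile normalization, so no direction is given for the chain as a whole.

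A set of 19 members passed in both strains under both scalings, 15 higher and 4 lower in liver. Of all genes, 17.8% passed in this way as higher and 20.2% as lower. The share of members called higher is thus near that of all genes, and the share called lower is below it. All 19 had the same sign in the knockout mice of both strains under both scalings. The 15 were 7 of complex I (*Ndufa7*, *Ndufa13*, *Ndufb9*, *Ndufb11*, *Ndufs3*, *Ndufs5* and *Ndufv3*), *Uqcr11* and *Uqcrq* of complex III, *Ndufa4* of complex IV, *Atp5g1* of complex V and the assembly factors *Ndufaf1*, *Ndufaf2*, *Ndufaf6* and *Sdhaf4*. The 4 lower in liver were *Cox7a1*, *Cox7c*, *Atp5o* and *Uqcrc1*. The median of the assembly factors was above 0 under both scalings, at 0.43 and 0.56 in B6 and 0.21 and 0.23 in D2.

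*Cox7a1* had the widest difference among the members. It read 31.9, 28.7 and 17.3 in B6 liver and 586, 628 and 644 in B6 duodenum, and 33.8, 38.5 and 29.7 in D2 liver against 846, 624 and 762 in D2 duodenum. The tissues were far apart on every array. The difference was -4.62 in B6 (SE 0.2, 24.7-fold, adjusted p = 3.1e-14) and -4.45 in D2 (SE 0.2, 21.8-fold, adjusted p = 5.79e-14), with the liver side close to the minimum signal of 20.

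The partner isoform *Cox7a2*, which most tissues use, read 7521, 7605 and 7040 in B6 liver and 6791, 6167 and 6544 in duodenum, a difference of 0.19 (adjusted p = 0.0324). The D2 difference was 0.16 (adjusted p = 0.0577). The direction turned after quantile normalization, to -0.38 in B6 (adjusted p = 0.000136) and -0.26 in D2 (adjusted p = 0.00538), whereas *Cox7a1* stood at -4.49 and -4.34. Smooth muscle markers were also higher in duodenum. The 8 genes summed to between 107 and 129 in B6 wild-type liver, where 6 of them were under 20 on every array, and to between 4314 and 5296 in B6 wild-type duodenum. Of 9 striated muscle markers, 6 were under 20 on all duodenum arrays of that group, and the sum was 112 to 129 there against 52.2 to 68.8 in liver. Markers of other duodenal cells differed in the same direction. In B6 wild-type mice, enterocyte markers summed to 28345 to 34300 in duodenum against 6028 to 7825 in liver. B and plasma cell markers summed to 6101 to 6724 against 142 to 147. The part of muscle or of any other cell type in the *Cox7a1* signal was not tested.

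Of the other muscle or tissue isoforms of complex IV, *Cox6a2* and *Cox6b2* stayed dim in both tissues, with signals from 7.42 to 33.3 and from 2.37 to 49.4. The widely expressed partners had no direction that held under both scalings. *Cox6a1* was higher in liver by 0.38 in B6 (adjusted p = 0.00112) and 0.31 in D2 (adjusted p = 0.0058) on the deposited scaling, and stood at -0.11 and -0.03 after quantile normalization. *Cox6b1* differed by 0.25 in B6 (adjusted p = 0.00267) and by 0.01 in D2 (adjusted p = 0.922), which turned to -0.2 and -0.3. *Cox4i1* differed by 0.17 and 0.14, not past the threshold, against -0.19 and -0.08. *Cox8a* differed by 0.02 and 0.1, against -0.27 and -0.19.

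*Cox7c*, whose probe set is dim, read 41.2, 46.8 and 49.2 in B6 liver and 86.4, 79.5 and 83.8 in B6 duodenum. The D2 arrays read 26.2, 35.8 and 24.2 against 75.5, 92.7 and 84.2. The tissues did not overlap in either strain, and the difference was -0.87 in B6 (SE 0.19, adjusted p = 0.000461) and -1.57 in D2 (SE 0.19, adjusted p = 3.01e-07). With the hybridization run as a block the B6 call was lost. The probe set averaged 58 over the 24 arrays and the other *Cox7c* set 19.8, so the level of this transcript is not described here.

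*Ndufa4*, a complex IV subunit, read 4357, 4411 and 3919 in B6 liver and 2127, 1839 and 1805 in B6 duodenum. The groups did not overlap, and the difference was 1.14 in B6 (SE 0.07, adjusted p = 2.09e-11) and 0.91 in D2 (SE 0.07, adjusted p = 7.91e-10). After quantile normalization it was 0.83 and 0.6. In the knockouts it was 1.03 in B6 and 0.99 in D2.

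In complex III, *Uqcr11*, a small subunit at the edge of the complex, read 3113, 2927 and 2953 in B6 liver and 1743, 1553 and 1784 in duodenum. No array of one tissue reached the other, with differences of 0.83 in B6 (SE 0.06, adjusted p = 3.58e-10) and 0.83 in D2 (SE 0.06, adjusted p = 3.4e-10). Quantile normalization left 0.5 and 0.53. *Uqcrq*, another small subunit, differed by 0.75 and 0.83, calls that were lost with the mean of its probe sets, at 0.18 and 0.29.

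The core subunit *Uqcrc1* went the other way, reading 2034, 1951 and 2094 in B6 liver against 3086, 2829 and 2870 in duodenum. The difference was -0.53 in B6 (SE 0.07, adjusted p = 9.95e-07) and -0.61 in D2 (SE 0.07, adjusted p = 1.35e-07), and -0.85 and -0.86 after quantile normalization. Subunits of 1 complex therefore differed between the tissues in opposite directions under both scalings.

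Complex V gave a like split. *Atp5o*, the stalk subunit that confers oligomycin sensitivity, read 2580, 2575 and 2515 in B6 liver and 4354, 4251 and 4230 in duodenum, a difference of -0.74 (SE 0.08, adjusted p = 6.94e-08). The D2 value was -0.81 (SE 0.08, adjusted p = 1.74e-08), and quantile normalization gave -1.11 and -1.06. *Atp5g1*, 1 of 3 genes for the same c-ring protein, was higher in liver by 0.67 in B6 (adjusted p = 5.58e-06) and 0.63 in D2 (adjusted p = 1.25e-05). Its partners differed less on the deposited scaling, *Atp5g2* by 0.18 and 0.15 and *Atp5g3* by 0.4 and 0.15, and both turned below 0 after quantile normalization, to -0.08 and -0.12 and to -0.09 and -0.21. *Atp5g1* stood at 0.36 and 0.33.

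Among the assembly factors, *Ndufaf6* read 186, 168 and 203 in B6 liver and 62, 99.5 and 69.7 in duodenum, a difference of 1.29 (SE 0.18, adjusted p = 3.02e-06). *Sdhaf4*, which helps load the flavin subunit of complex II, read 494, 506 and 496 against 195, 221 and 215, a difference of 1.25 (SE 0.12, adjusted p = 1.24e-08). The D2 values were 1.02 and 0.99, and the tissues did not overlap for either gene. The *Ndufaf6* calls were lost with the hybridization run as a block. *Ndufaf1*, an early factor of complex I assembly, differed by 0.96 and 0.93.

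*Ndufa7* and *Ndufb9*, accessory subunits of complex I, were higher in liver by 0.8 and 0.68 in B6 and by 0.75 and 0.66 in D2. All 4 further probe sets of *Ndufa7* had the same sign in both strains, from 0.28 to 0.88 in B6 and from 0.25 to 0.63 in D2. Over all members called on the deposited scaling, 35 of 43 further probe sets had the sign of the call in B6 and 29 of 37 in D2. For *Cox6c* of complex IV, called higher by 0.23 in D2 on the deposited scaling and at 0.01 after quantile normalization, another probe set was called lower, by -0.47 (adjusted p = 0.000327).

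**Figure D3:**
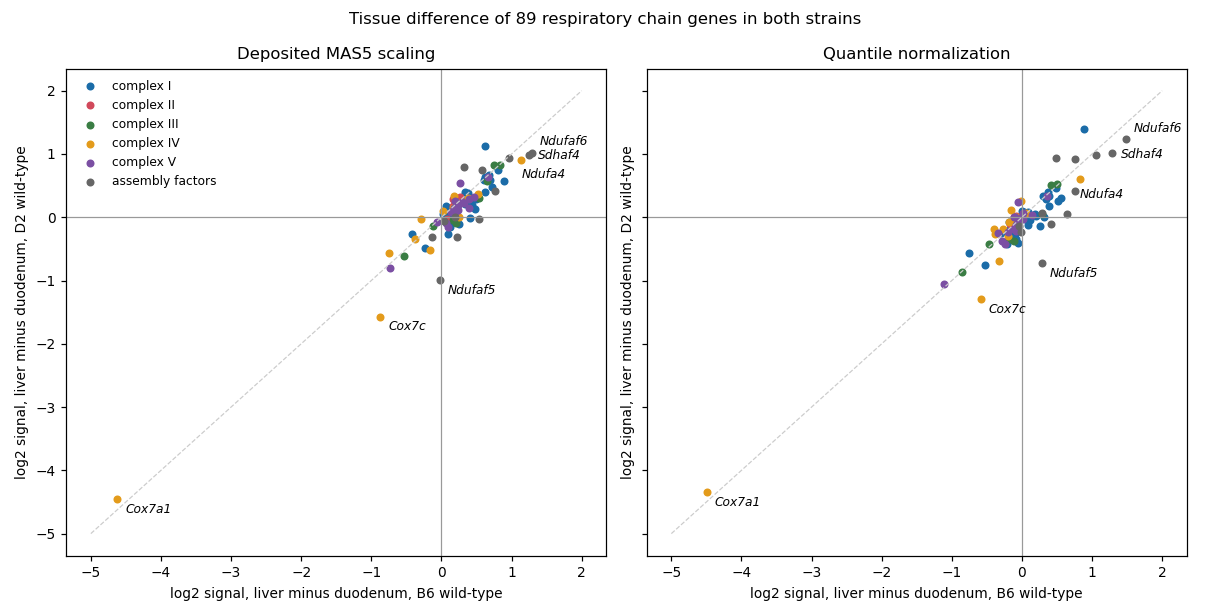
Difference in log2 signal, liver minus duodenum, of the 89 members in wild-type B6 (horizontal axis) and wild-type D2 mice (vertical axis), on the deposited scaling (left) and after quantile normalization (right); colours are complexes, and the dashed line marks equal values. *Cox7a1* stands apart in both panels, at -4.62 and -4.45 on the left, and the bulk of points shifts from above 0 to around 0, with member medians moving from 0.25 and 0.18 to -0.05 and -0.02.

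**Figure D4:**
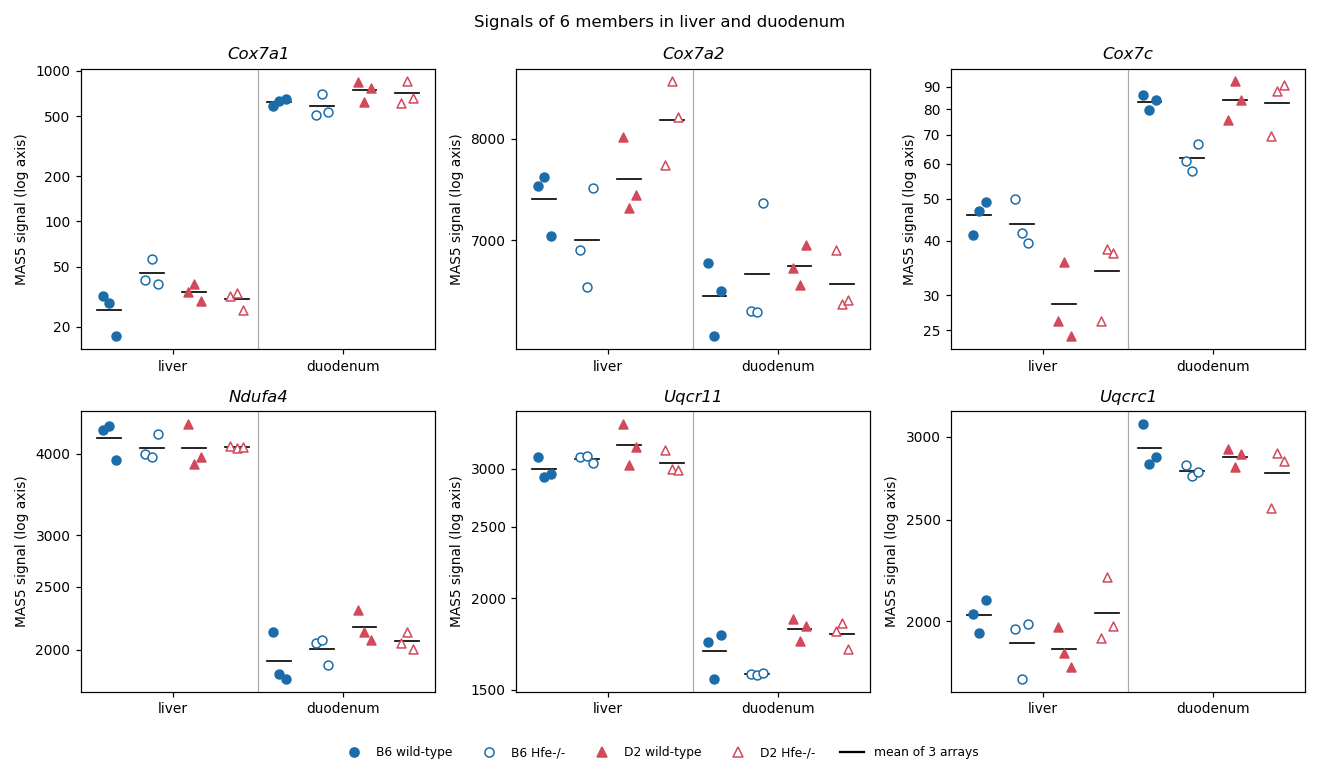
MAS5 signals (vertical log axes, which differ between panels) of *Cox7a1*, *Cox7a2*, *Cox7c*, *Ndufa4*, *Uqcr11* and *Uqcrc1* on every array; circles are B6, triangles D2, filled wild-type, open *Hfe*-/-, and bars the mean of 3 arrays. *Cox7a1* stays at 17.3 to 56.1 in liver and 507 to 850 in duodenum, while *Cox7a2*, on this deposited scaling, runs from 6167 to 8631 over both tissues and has no direction that holds under both scalings.

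When the hybridization run was entered as a block, 18 members passed in B6, 15 higher and 3 lower, and 16 in D2, 12 higher and 4 lower, each of which also passed without the block. The shares of all genes fell as well, to 12% higher and 14.5% lower in B6 and 10.2% higher and 12.1% lower in D2. Acinar markers summed to 12954 to 64460 in B6 wild-type duodenum and 300 to 436 in B6 wild-type liver, and their part in the tissue differences was not tested.

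**Figure D5:**
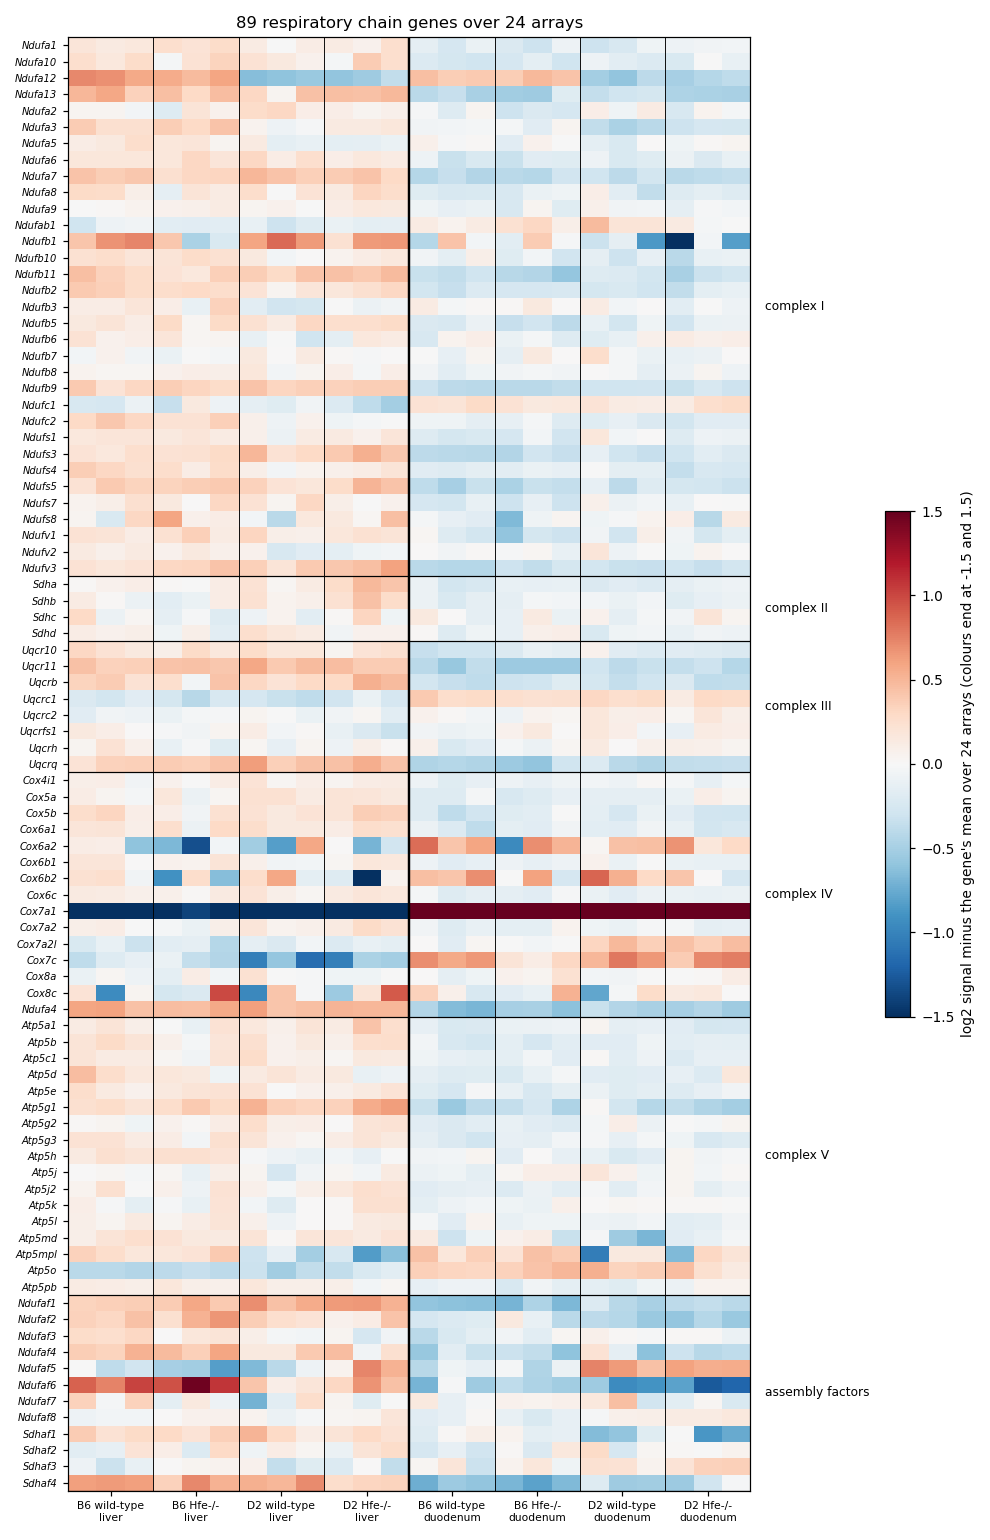
Log2 signal minus the gene's mean over the 24 arrays (colour, ending at -1.5 and 1.5) for the 89 members (rows, by complex) on each array (columns, by tissue, strain and genotype). The tissue boundary in the middle is the main step for *Cox7a1*, *Ndufa4* and *Ndufaf6*, the strain step is seen for *Ndufa12*, and dim genes such as *Cox6b2*, *Cox8c* and *Ndufb1* vary from array to array.

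Genes that work beside the chain were followed in 4 lists: electron carriers and ubiquinone synthesis (19 of 23 listed symbols measured), further assembly factors (35 of 39), regulators (19 of 20), and carriers of ATP and phosphate with inhibitor and uncoupling proteins (13 of 19). In D2 knockout liver, *Etfdh*, which feeds electrons from fatty acid oxidation to ubiquinone, was lower by -0.58 (SE 0.12, adjusted p = 0.0249). *Uqcc2*, an assembly factor of complex III, was higher by 0.47 (SE 0.1, adjusted p = 0.0297), and no other gene of the 4 lists passed there at 0.1. In B6 knockout liver, *Cox17*, a copper chaperone of complex IV, fell by 0.42 (SE 0.1, adjusted p = 0.079) and *Uqcc3* fell by 0.35 (SE 0.08, adjusted p = 0.0881).

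In D2 knockout duodenum the single call of the 4 lists was *Nnt*, the transhydrogenase of the inner membrane, which was higher by 0.64 (SE 0.11, adjusted p = 0.0617). *Nnt* had the smallest p of the strain differences of its list, higher in wild-type D2 than in B6 by 1.58 in liver (SE 0.1, adjusted p = 8.48e-08) and 1.53 in duodenum (SE 0.11, adjusted p = 2.91e-06). In B6 knockout duodenum and in both interactions, none of the 4 lists held a call.

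Between the strains, ubiquinone synthesis genes went both ways in liver, *Coq7* by -0.97 (adjusted p = 6.83e-06) and *Coq5* by 1.03 (adjusted p = 2.74e-05). *Sco2*, a copper chaperone of complex IV, was higher in D2 in both tissues, by 0.62 in liver and 1.39 in duodenum, as was *Cox18*, by 0.61 and 0.9. *Atpaf1*, a chaperone of the ATP synthase, was lower in D2 by -1.03 and -0.63. *Sqor*, which passes electrons from sulfide to ubiquinone, was lower in D2 duodenum by -1.51 (adjusted p = 4.99e-06).

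Between the tissues, *Atpif1*, the inhibitor of the ATP synthase, was lower in liver by -3.66 in B6 (SE 0.11, adjusted p = 7.97e-17) and -3.7 in D2 (SE 0.11, adjusted p = 7.42e-17). *Ckmt1*, a mitochondrial creatine kinase, read 2882 to 4133 in B6 duodenum and 2834 to 3733 in D2 duodenum, and was under 20 on every wild-type liver array, so no fold is given. *Etfb* and *Etfdh* were higher in liver by 1.72 and 1.84 in B6 and by 1.24 and 1.76 in D2. *Ppara*, a regulator of fatty acid oxidation, was higher in liver by 2.89 and 2.27. The regulators went both ways: on the deposited scaling, 7 of the 19 measured were called higher and 4 lower in B6 liver. Of all genes, 22.2% were called higher and 29.5% lower there, so these counts are not read as an excess. *Esrra*, *Sp1* and *Pprc1* were called lower in liver in both strains, by -1.66, -0.62 and -0.87 in B6 and by -1.33, -0.45 and -0.93 in D2. *Polg*, *Tfb1m*, *Tfb2m*, *Twnk*, *Polrmt* and *Mterf3* were called higher in both, by 0.93, 1.18, 0.52, 0.74, 0.46 and 0.42 in B6. Their D2 values were 1.2, 1.12, 0.76, 1.19, 0.94 and 0.51. After quantile normalization *Atpif1*, *Etfb*, *Etfdh* and *Ppara* kept their direction in both strains, past the threshold. The regulators other than *Ppara* were not examined under that scaling.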

How the data were processed

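RNA from liver and duodenum was hybridized by the study to Affymetrix Mouse430_2 arrays, with 1 array for each sample. The deposited values are MAS5 signal intensities, scaled per array by the authors, with no MAS5 version stated. The values carry no detection calls, so probe sets with a signal of at least 20 on 3 arrays of a tissue were kept, 28061 in all. Signals were log2 transformed. The 12 arrays of a tissue, or all 24 for tissue comparisons, were fitted with limma 3.58.1 (eBayes with an intensity trend) in R 4.3.3, with the data.table package (version 1.17.8), and p-values were adjusted by Benjamini-Hochberg over all kept probe sets. The thresholds were 0.1 for knockout and interaction and 0.01 for strain and tissue. The methods' S-scores need probe-level data, so limma stands in. Member and companion lists were chosen with earlier results of these data known.

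Members were named from the platform annotation, which gave 1 symbol to 34945 probe sets, several to 932 and none to 9160. In each comparison up to 10 members called in each direction could be named, or the member with the smallest p. Isoform families, members whose probe sets disagreed, and *Uqcrfs1*, *Ndufa12*, *Sdhc* and *Ndufs4* could be named as well. *Sdha*, *Sdhb*, *Sdhd*, *Ndufs1*, *Ndufb9* in B6, the iron-sulfur members, the full list called under both scalings and genes named under an alternative were chosen after their values were seen. The 10 probe sets that name a member with another gene were left out. Hybridization runs are arrays whose recorded hybridization times lie under 1 h apart. The script was tested on simulated data. Depth does not apply to arrays, and 3 per group limit the precision: the smallest two-sided p of an exact permutation test on 3 against 3 arrays is 0.1. Same-numbered replicates did not deviate together (correlations of -0.2 to 0.12 over 36 pairs within tissues and -0.02 to 0.03 over 12 pairs between tissues). The numbers need not identify mice, so these correlations cannot show whether a liver and a duodenum array share a mouse. The main fits used no block and treated liver and duodenum arrays as separate animals, so mice shared between the tissues are not accounted for. Alternatives were another scaling, offset, filter and variance model, blocks, and leaving out each array.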

Additional observations from a re-analysis of the deposited data

How the results depend on the processing

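With 3 arrays a group, counts near 0 moved with the settings. In D2 liver knockouts, where no member passed, 1 did with log2 of the signal plus 16 (*Ndufaf5*), 1 after quantile normalization (*Sdha*), 2 at a minimum of 100 (*Sdha* and *Uqcrfs1*), 1 with the mean of all probe sets (*Ndufaf5*), and 0 to 4 with 1 array left out, the 4 without D2 knockout array 1 (*Atp5mpl*, *Ndufaf5*, *Sdha* and *Uqcrfs1*). The liver interaction gave 0 to 1 with 1 array left out, the 1 being *Ndufaf5* without that same array. The other knockout counts stayed at 0 with each array left out, except that the D2 duodenum count was 1 without arrays 2 and 3, a setting chosen after seeing the data that rests on 1 dim reading of *Ndufb1* in the lone array left. The *Ndufab1* difference there turned to 0.04 with the mean of all probe sets. The count of 1 between wild-type livers was 3 after quantile normalization, 2 at a minimum of 100, 2 with the mean of all probe sets and 4 with only the arrays compared. *Ndufa12* was in each, and the count stayed at 1 with each array left out.

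The 4 calls between wild-type duodena were 2 without a filter, 2 without the trend, 2 with the mean of all probe sets, 1 with only the arrays compared, 1 with the hybridization run as a block and 1 to 2 with any array left out. With the replicate number as a block, in which the numbers pair nothing, the count was 1 (*Ndufa12*). The block moved no other count by over 1.5 times. Between the tissues, the run as a block gave 18 in B6 and 16 in D2 in place of 48 and 40. Leaving out arrays gave 39 to 48 in B6 and 32 to 41 in D2. The cause of these moves was not tested. Signals near the minimum of 20 limit what *Cox6a2*, *Cox6b2*, *Cox7c* and *Ndufb1* can show.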
